A study of Mus musculus with 2 samples.

Results

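RNA counted in droplets that hold a nucleus was compared, gene by gene, with RNA counted in droplets outside the processed matrix, which is called free RNA here. Nuclei were the processed barcodes with at least 5000 unique molecular identifiers (UMIs, tags that mark each captured RNA molecule) and at most 5% of UMIs from mt- genes, the genes of the mitochondrial genome. Free RNA was taken from raw barcodes with 500 to under 850 UMIs that are absent from the processed barcodes. The rule gave 5428 nuclei and 49929 free RNA barcodes, 55357 of the 1904084 barcodes with at least 1 UMI. Within the nuclei, 1586 barcodes with a summed level of Cyp7b1, Abcb11 and Arg1 of at least 15 per 10000 UMIs are called hepatocyte nuclei, and the remaining 3842 are called other nuclei. At a level of at least 8 per 10000 this choice would take 2231 nuclei, and at 30 per 10000 it would take 569.

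The study profiled nuclei of frozen mouse liver with the 10x Genomics 3′ assay, which primes on poly(A) runs, from areas of residual tumour cut out of livers with hepatocellular carcinoma (HCC). Its 2 samples carry the titles MRD-HCC 1 and MRD-HCC 2, form 1 group and have no untreated or healthy counterpart. The labels name no genotype, strain, age, tumour model or treatment of the mice. The deposited matrix pools its barcodes under 1 suffix with no map to the samples, so it counts as 1 sample: there is no replicate spread and no test, and every interval covers counting error only.

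In a living cell most mature messenger RNA sits in the cytoplasm, on ribosomes or at the endoplasmic reticulum, while nascent RNA with its introns and a set of long noncoding RNAs stay in the nucleus. When tissue is broken to release nuclei, cytoplasmic RNA spills into the suspension and is captured in droplets with and without a nucleus. Liver is a tissue in which secreted protein mRNAs such as that of albumin dominate the cytoplasm.

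The best known nuclear RNAs of mammals, Malat1 and Neat1, lie near each other on chromosome 19 and carry related elements close to their 3′ ends, in which U-rich stretches are known to fold around an A-rich tract as a triple helix that protects the end in place of a poly(A) tail. They are shown because Malat1 is the most abundant RNA of the nuclei and because an A-rich tract is a place where poly(A) priming can start. Both are 110 bases from GENCODE M21 transcripts on GRCm38, minus strand, written 5′ to 3′ with T for U, and capitals mark the 2 U-rich stretches and the A-rich tract. The Malat1 window is chr19:5795982-5796091, ends 292 bases before the annotated end of its 6983-base transcript of 1 exon, and the Neat1 window is chr19:5824708-5824817, at the annotated end of its 20771-base transcript of 1 exon.
Malat1: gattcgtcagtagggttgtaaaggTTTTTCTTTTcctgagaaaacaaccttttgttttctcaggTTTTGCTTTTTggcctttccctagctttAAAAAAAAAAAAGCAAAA
Neat1: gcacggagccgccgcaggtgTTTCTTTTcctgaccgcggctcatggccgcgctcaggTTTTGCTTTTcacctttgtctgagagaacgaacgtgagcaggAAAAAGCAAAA

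Nuclei held 69432408 UMIs, with 5002 to 125991 per barcode and a median of 9838, and free RNA held 33561887 UMIs, with a median of 669. Hepatocyte nuclei were deeper than other nuclei, with medians of 15607.5 and 8318.5 UMIs. By the marker Malat1 the pools separated in level but not without overlap: its share of a barcode's UMIs had a median of 6.27% in nuclei (5th to 95th percentile 2.79 to 18.7%) and 2.61% in free RNA (1.51 to 4.02%). Alb, the albumin gene, went the other way, with a median share of 0.351% in nuclei (0.149 to 0.759%) and 2.50% in free RNA (1.43 to 3.88%). Every free RNA barcode had at least 1 Malat1 UMI and all but 2 had Alb, so the free RNA is not free of nuclear transcripts. Whether some of its barcodes hold damaged nuclei was not tested. Mitochondrial genes, which the rule used, took 0.482% of UMIs in nuclei and 2.93% in free RNA.

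**Figure D1:**
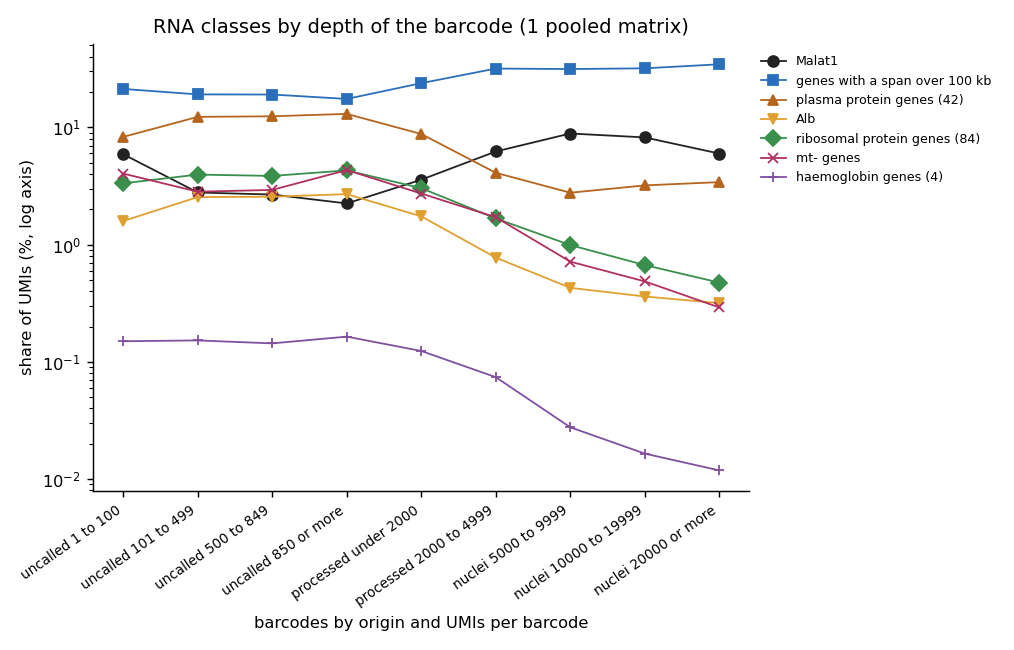
Share of UMIs (percent, log axis) of each RNA class over barcodes ordered by origin and depth (UMIs per barcode), in the 1 pooled matrix. Malat1 runs from 2.67% in uncalled barcodes of 500 to under 850 UMIs to 8.87% in nuclei of 5000 to under 10000 UMIs, while plasma protein, ribosomal protein, haemoglobin and mt- genes take a lower share in nuclei; the mt- share was part of the rule.

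The shares moved with depth within the nuclei too. Ribosomal protein genes took 0.991% of UMIs in nuclei of 5000 to under 10000 UMIs, 0.669% in those of 10000 to under 20000 and 0.474% in those of at least 20000, against 3.85% in free RNA. Haemoglobin genes, whose mRNA is made in red cells that lose their nucleus, took 0.0276%, 0.0165% and 0.0119% in the same order, against 0.144% in free RNA. Malat1 was highest in nuclei of 5000 to under 10000 UMIs at 8.87% and lower in the deepest at 5.98%. Processed barcodes of 2000 to under 5000 UMIs, which the rule leaves out, lay between the pools, with Malat1 at 6.23% and ribosomal protein genes at 1.67%. The cell types of these depth classes differ in ways that were not tested.

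Levels below are counts scaled to the UMI total of a pool (CPM), compared within a gene, and a log2 ratio is that of nuclear CPM plus 1 to free RNA CPM plus 1. With no test, a gene counts as higher or lower past a 2-fold ratio, among genes with a mean of at least 10 CPM over the pools compared. Of 9883 such genes, 2076 (21.0%) were higher in all nuclei and 1076 (10.9%) lower, and the median log2 ratio was 0.52. Large differences lay on the lower side: 301 genes (3.05%) were at least 4-fold lower and 25 (0.253%) at least 4-fold higher. In hepatocyte nuclei 1911 of 9497 genes (20.1%) were higher and 1508 (15.9%) lower, with a median of 0.35, and past 4-fold 187 (1.97%) were higher and 544 (5.73%) lower. In other nuclei 2515 of 10049 (25.0%) were higher and 1131 (11.3%) lower, with a median of 0.51, and past 4-fold 180 (1.79%) were higher and 268 (2.67%) lower. All these comparisons share the same free RNA pool.

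The count of higher genes rested on the choice of free RNA and on scaling. Against uncalled barcodes of 1 to 100 UMIs, which hold 1.79 UMIs on average and 5.90% Malat1, only 64 genes were higher and 914 lower in all nuclei (6.54% of calls higher, against 65.9%), and 676 were higher and 1813 lower in hepatocyte nuclei (27.2% higher, against 55.9%). With mt- genes, Malat1, Gm42418 and Cmss1 left out of the totals, a setting added after the data were seen, the median of hepatocyte nuclei moved from 0.35 to 0.20 with 1531 genes higher and 1825 lower (45.6% of calls higher). That of all nuclei moved to 0.42 with 1690 higher and 1260 lower (57.3% higher). CPM is a share of a pool, so a lower CPM does not by itself mean fewer molecules per droplet.

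**Figure D2:**
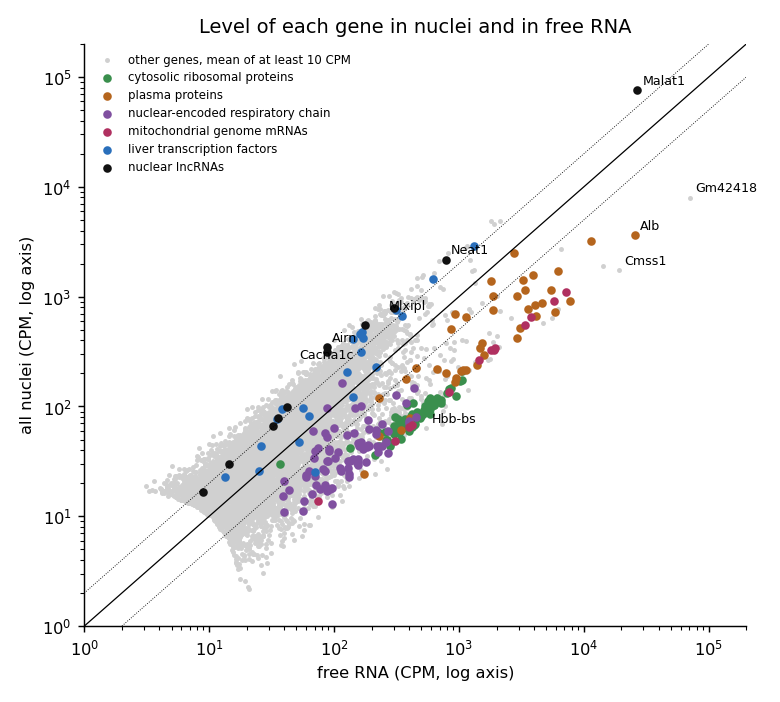
Level of each gene in all nuclei (y axis, CPM, log axis) against free RNA (x axis, CPM, log axis), 1 point per gene, with lines at equal level (solid) and at 2-fold (dotted). Most ribosomal, plasma protein and respiratory chain genes lie below the lines, and Malat1, Neat1 and Airn above.

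Long noncoding RNAs known to stay in the nucleus were higher in nuclei. Of the 17 genes of this list, 11 passed the minimum. Of these, 10 were at least 2-fold higher in all nuclei and 0 were lower, with a median log2 ratio of 1.40. In hepatocyte nuclei 8 of 12 were higher, with a median of 1.22. Over all genes 21.0% were higher in all nuclei and 20.1% in hepatocyte nuclei. Over all lncRNA genes these shares were 66.5% (median 1.20) and 66.6% (median 1.37). In hepatocyte nuclei the list thus did not stand above lncRNA genes in general. As a sum the 17 genes took 8.06% of UMIs in all nuclei, 5.29% in hepatocyte nuclei, 10.1% in other nuclei and 2.83% in free RNA, nearly all of it Malat1.

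Malat1 (chromosome 19, 5795690 to 5802672) stood at 76110 CPM in all nuclei, 49016 CPM in hepatocyte nuclei, 95976 CPM in other nuclei and 26729 CPM in free RNA. It was thus 2.85-fold (95% exact interval 2.84 to 2.85) higher in all nuclei and 1.83-fold (1.83 to 1.84) higher in hepatocyte nuclei, where it did not pass 2-fold. Against the uncalled barcodes of 1 to 100 UMIs its log2 ratio was 0.37 in all nuclei and -0.27 in hepatocyte nuclei, so its direction in hepatocyte nuclei depends on which free RNA is used.

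Neat1, the RNA that builds the nuclear bodies called paraspeckles, stood at 2176 CPM in all nuclei, 2304 CPM in hepatocyte nuclei, 2083 CPM in other nuclei and 782 CPM in free RNA. Hepatocyte and other nuclei were alike in its level, and the ratio was 2.78 (2.75 to 2.82) for all nuclei and 2.95 (2.91 to 2.99) for hepatocyte nuclei. Airn and Kcnq1ot1 are imprinted antisense RNAs that silence neighbouring genes in cis. Airn stood at 345 CPM in all nuclei and 87.6 CPM in free RNA, a 3.93-fold (3.79 to 4.09) difference, and at 194 CPM in hepatocyte nuclei. Kcnq1ot1 stood at 557 CPM in all nuclei, 469 CPM in hepatocyte nuclei and 178 CPM in free RNA. The labels and file headers do not say whether counting used strand. Whether reads of these antisense RNAs were kept apart from those of the genes they overlap is thus not known here.

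Spliced noncoding RNAs that are known to reach the cytoplasm, many of them hosts of snoRNAs, did not share this pattern. Of 11 that passed, 1 was higher and 1 lower in all nuclei, with a median log2 ratio of -0.10, which moved to 0.00 with nuclei of at least 2000 UMIs and to 0.05 as a mean over barcodes. The extremes were Snhg12, at 94.0 CPM in all nuclei and 34.4 CPM in free RNA, and H19, an imprinted fetal RNA that is also a tumour marker, at 58.7 CPM and 251 CPM. Gas5 lay between them at 134 CPM in all nuclei and 157 CPM in free RNA.

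Protein-coding genes with reported nuclear retention in liver and other tissue were higher above all in hepatocyte nuclei. All 5 were at least 2-fold higher there, with a median log2 ratio of 1.45, against 1 of 5 in all nuclei (median 0.76) and 1 of 5 in other nuclei (median -0.22). Mlxipl, which encodes the sugar-sensing factor ChREBP, stood at 871 CPM in hepatocyte nuclei, 540 CPM in other nuclei and 246 CPM in free RNA, a 3.54-fold (3.45 to 3.63) difference for hepatocyte nuclei. The log2 ratios in hepatocyte nuclei were 1.45 for Nlrp6, an innate immune sensor, 1.42 for Gcgr, the glucagon receptor, and 1.09 for Slc7a2, a transporter of cationic amino acids. These genes are also hepatocyte genes, and the free RNA holds RNA of all cell types of the tissue in unknown shares, so cell composition and location in the cell cannot be told apart in this comparison.

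Splicing regulators, many of whose transcripts are known to keep introns and stay in the nucleus, had a median log2 ratio of 0.78 in all nuclei, against 0.52 over all genes, with 3 of 22 higher and 0 lower. The share higher was thus below the 21.0% of all genes. In hepatocyte nuclei the median was 0.55, against 0.35 over all genes, with 3 of 22 higher (20.1% of all genes), and it was -0.06 against the uncalled barcodes of 1 to 100 UMIs. Clk4, a kinase of splicing factors, was the highest at 214 CPM in all nuclei, 196 CPM in hepatocyte nuclei and 84 CPM in free RNA. Srsf3, a splicing factor, was the lowest, at 94.4, 68.9 and 103 CPM in the same pools.

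Transcription factors and nuclear receptors of hepatocytes were at least 2-fold higher in nuclei more often than lower, as were all genes. In all nuclei 9 of 21 were at least 2-fold higher and 1 lower, with a median of 0.92. In hepatocyte nuclei 12 of 21 were higher and 1 lower, with a median of 1.16. Over all genes 21.0% were higher and 10.9% lower in all nuclei, and 20.1% and 15.9% in hepatocyte nuclei. Zbtb20, a repressor that shuts off fetal genes in liver, stood at 2888 CPM in all nuclei, 3471 CPM in hepatocyte nuclei and 1319 CPM in free RNA. Tcf7l2, a partner of beta-catenin, stood at 413, 489 and 142 CPM, and was 2.92-fold (2.83 to 3.01) higher in all nuclei. Onecut1 and Ppara, a fatty acid receptor, had the largest ratios in hepatocyte nuclei, with log2 values of 2.12 and 2.03. Hnf4a, the central hepatocyte receptor, was within 2-fold at 0.08 in all nuclei and 0.60 in hepatocyte nuclei. The lower gene was Cebpa, a gene of 1 coding exon with a span of 2.64 kb, at 25.3 CPM in all nuclei, 33.6 CPM in hepatocyte nuclei and 70.0 CPM in free RNA.

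Of circadian clock genes, 6 of 15 were higher and 0 lower in all nuclei (median 0.95), against 21.0% and 10.9% of all genes. In hepatocyte nuclei 8 of 15 were higher (median 1.06), against 20.1% of all genes. Rora, a nuclear receptor of the clock, was the most abundant at 451 CPM in all nuclei and 194 CPM in free RNA. Immediate early genes, whose transcripts are short-lived, showed no common direction: 1 of 13 was higher and 1 lower, with a median of -0.05 in all nuclei and 0.06 in hepatocyte nuclei. These medians near 0 changed sign under 1 alternative in all nuclei and 4 in hepatocyte nuclei.

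Messenger RNAs of secreted plasma proteins took the largest summed share of free RNA among the gene lists. The 42 genes took 12.4% of its UMIs, against 3.15% in all nuclei, 4.04% in hepatocyte nuclei and 2.50% in other nuclei. Of 41 that passed, 34 were at least 2-fold lower in all nuclei and 0 higher, with a median log2 ratio of -2.10; in hepatocyte nuclei 29 of 42 were lower and 0 higher, with a median of -1.79. Nuclei of the cell type that makes these proteins thus held them at a lower share than free RNA did.

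Alb (chromosome 5, 90460897 to 90476602) stood at 3643 CPM in all nuclei, 3740 CPM in hepatocyte nuclei, 3573 CPM in other nuclei and 25622 CPM in free RNA. It was 7.03-fold (7.0 to 7.06) lower in all nuclei and 6.85-fold (6.81 to 6.89) lower in hepatocyte nuclei, and the hepatocyte and other nuclei were alike in this share. Apoe, an apolipoprotein that macrophages also make, was the lowest of the list, at 919, 723, 1063 and 7751 CPM in the same order of pools. Its span is short, from 19696109 to 19699188 on chromosome 7. Pzp, an alpha-2-macroglobulin type protease inhibitor, was at the other end, at 2492 CPM in all nuclei, 3864 CPM in hepatocyte nuclei, 1486 CPM in other nuclei and 2765 CPM in free RNA. Fgb, a fibrinogen chain, and Trf, the iron carrier transferrin, lay between, with log2 ratios in hepatocyte nuclei of -1.43 and -1.39.

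Major urinary proteins, pheromone carriers secreted by mouse liver, were lower as well. Of 22 genes, 9 passed and 7 of those were lower in all nuclei and in hepatocyte nuclei, with medians of -2.70 and -2.54. Mup3 stood at 273 CPM in all nuclei and 1777 CPM in free RNA, and Mup1 at 27.1 CPM and 264 CPM. Mup10 was within 2-fold, at 11.3 CPM in all nuclei, 21.8 CPM in hepatocyte nuclei and 15.6 CPM in free RNA. These genes are near-identical copies, so how reads were split among them is uncertain.

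Metabolic enzymes of hepatocytes were spread across both directions. Of 33 enzymes, 10 were lower and 0 higher in all nuclei (median -0.64), against 10.9% and 21.0% of all genes. In hepatocyte nuclei, without Arg1, which the rule used, 8 of 32 were lower and 4 higher, against 15.9% and 20.1% of all genes. The median of these enzymes was -0.13. It turned to 0.15 against the uncalled barcodes of 1 to 100 UMIs and to 0.08 at a hepatocyte level of 30 per 10000. Cps1, the first enzyme of the urea cycle, stood at 1720 CPM in all nuclei, 2993 CPM in hepatocyte nuclei, 786 CPM in other nuclei and 1272 CPM in free RNA, and was 2.35-fold (2.33 to 2.38) higher in hepatocyte nuclei. Scd1, a desaturase of fatty acid synthesis, stood at 143, 100.8, 173 and 1181 CPM in the same order, and was 11.7-fold (11.3 to 12.2) lower in hepatocyte nuclei. Hao1, a peroxisomal oxidase, was the highest with a log2 ratio of 1.56 in hepatocyte nuclei, and Fabp1, the liver fatty acid binding protein, stood at -1.57.

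Cytochrome P450 genes of families 1 to 4, oxidases of drugs, steroids and fatty acids, were spread widely as well. Of 80 genes, 37 passed in all nuclei with 3 higher and 10 lower (median -0.42), against 21.0% and 10.9% of all genes. In hepatocyte nuclei 38 passed with 13 higher and 6 lower (median 0.38), against 20.1% and 15.9% of all genes. The share lower in hepatocyte nuclei was thus near that of all genes. Members of 1 subfamily lay on both sides: Cyp2c67 stood at 672 CPM in all nuclei, 1276 CPM in hepatocyte nuclei and 341 CPM in free RNA, and Cyp2c29 at 239, 456 and 578 CPM. In subfamily 3a, Cyp3a11 was lower, at 91.6, 96.6 and 743 CPM, while Cyp3a25 was higher in hepatocyte nuclei, at 436, 777 and 302 CPM. Cyp2e1, the ethanol-inducible enzyme, stood at 327, 593 and 911 CPM. Paralogous P450 genes can share reads, so these values are uncertain where copies are near-identical.

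Cytosolic ribosomal protein genes were lower in nuclei almost without exception. Of 84 genes that match their symbols, 80 passed and 79 were at least 2-fold lower in all nuclei, with a median log2 ratio of -2.49, and 79 of 80 were lower in hepatocyte nuclei, with a median of -2.98. The exception in both was Rpl7l1, a paralogue that the symbols take in, at 29.9 CPM in all nuclei and 36.8 CPM in free RNA. Rplp1 was the lowest, at 124 CPM in all nuclei, 86.1 CPM in hepatocyte nuclei, 152 CPM in other nuclei and 943 CPM in free RNA, a 7.59-fold (7.41 to 7.77) difference for all nuclei. Translation factors followed, with 13 of 18 lower in all nuclei (median -1.58) and 15 of 18 in hepatocyte nuclei (median -1.81). Eef1a1, the elongation factor that brings tRNA to the ribosome, stood at 348 CPM in all nuclei and 2086 CPM in free RNA, whereas Eif4a2, an RNA helicase, had a log2 ratio of 0.02.

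Nuclear-encoded subunits of the respiratory chain were lower in 65 of 77 cases in all nuclei (median -1.83) and 70 of 77 in hepatocyte nuclei (median -2.11), with 0 higher. Cox4i1, a subunit of cytochrome oxidase, stood at 80.9 CPM in all nuclei and 456 CPM in free RNA. Ndufs4, a complex I subunit whose gene spans 100 kb, was the highest of the list at 163 CPM in all nuclei and 115 CPM in free RNA. Actin, tubulin, thymosin and S100 type genes were lower in 15 of 16 cases in all nuclei (median -2.02) and 16 of 16 in hepatocyte nuclei (median -2.92), with Actb at 100.8 CPM, 65.0 CPM and 595 CPM in all nuclei, hepatocyte nuclei and free RNA. Selenoproteins (8 of 12 lower), the import and folding machinery of the endoplasmic reticulum (8 of 20 lower) and proteasome subunits (9 of 18 lower, 1 higher) differed less, with medians of -1.15, -0.95 and -0.94 in all nuclei.

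**Figure D3:**
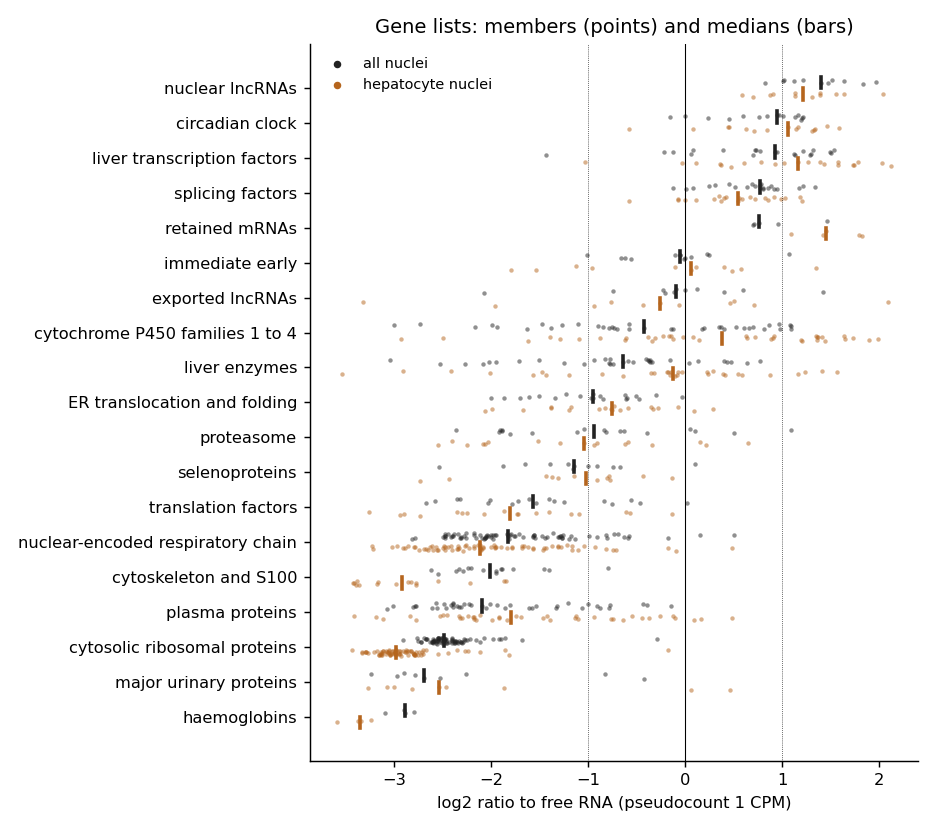
Log2 ratio to free RNA of each gene that passed the minimum (points) and list medians (bars), for 19 gene lists in all nuclei and hepatocyte nuclei. Lists follow the order of their median in all nuclei, except that endoplasmic reticulum import and folding (-0.95) stands before proteasome (-0.94). Lines mark 0 and 2-fold. Nuclear lncRNAs sit at a median of 1.40 and ribosomal proteins at -2.49 in all nuclei.

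Haemoglobin mRNA is made in erythroid cells and is carried into liver tissue by blood. All 4 haemoglobin genes were lower in nuclei, with medians of -2.90 in all nuclei and -3.36 in hepatocyte nuclei, and Hbb-bs, a beta chain, stood at 63.4, 44.7, 77.1 and 549 CPM in all nuclei, hepatocyte nuclei, other nuclei and free RNA. Counted per barcode the picture differed: Hbb-bs had 0.369 UMIs in a free RNA barcode, 0.828 in a hepatocyte nucleus and 0.804 in another nucleus. Nuclear barcodes thus held more Hbb-bs RNA than free RNA barcodes, but the rule chose them to be deeper. Hepatocyte and other nuclei held about the same amount although their depths differed.

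Rplp1 gave 0.634 UMIs in free RNA, 1.59 in hepatocyte nuclei and 1.59 in other nuclei. For Alb the values were 17.2, 69.3 and 37.3 UMIs, and for Cps1 0.855, 55.4 and 8.20. Malat1 gave 18.0 UMIs in free RNA, 908 in hepatocyte nuclei and 1001 in other nuclei. Over the 9883 genes the median ratio of UMIs per barcode, all nuclei to free RNA, was 27.6, 0 genes were under 1 and 4 were under 2. The rule chose the pools by their UMI totals, with means of 12792 per nucleus and 672 per free RNA barcode. Ratios per barcode above 1 therefore follow largely from the rule and are no separate result. The genes named here per barcode were chosen after their levels were seen. The share of a nuclear barcode that is free RNA was not measured. If free RNA has the same composition in every droplet, the gene with the lowest ratio among those of at least 100 CPM in free RNA puts it at no more than 9.07% in all nuclei and 6.25% in hepatocyte nuclei (Cmss1 in both) and 10.4% in other nuclei (Mup1), and genes at or near these ratios have no nuclear level that can be told from free RNA.

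**Figure D4:**
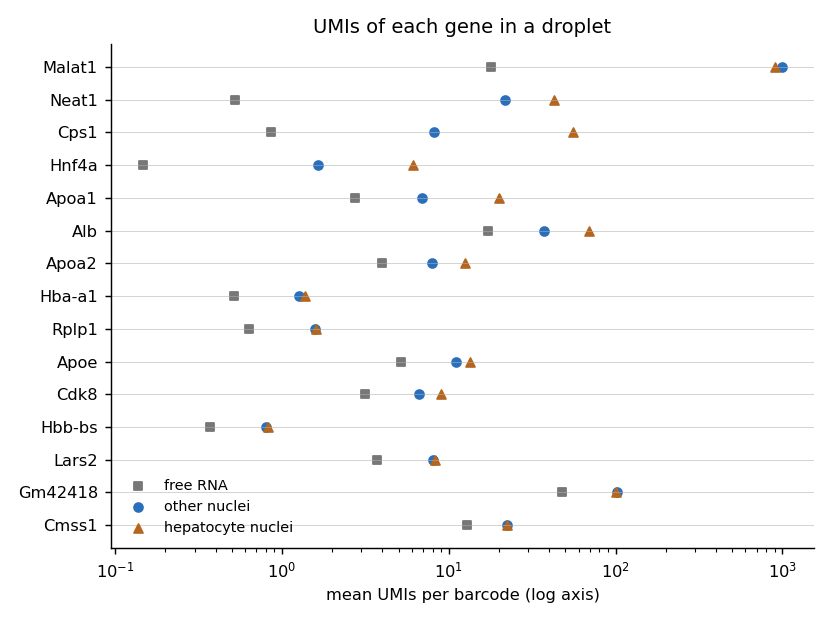
Mean UMIs per barcode (log axis) of 15 genes in free RNA (squares), other nuclei (circles) and hepatocyte nuclei (triangles). For Rplp1, Hbb-bs, Gm42418 and Cmss1 the hepatocyte and other nuclei nearly coincide, and for Cps1 they stand at 55.4 and 8.20.

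Among genes ranked by ratio alone, the lowest in all nuclei included Gm42418, a noncoding locus on chromosome 17 (39846958 to 39848788) that is known to overlap ribosomal RNA sequence. Gm42418 was the most abundant gene of free RNA, at 71171 CPM, and stood at 7957 CPM in all nuclei, 5447 CPM in hepatocyte nuclei and 9797 CPM in other nuclei. Cmss1 had the lowest ratio of all ranked genes, at 1740, 1199 and 2137 CPM in those pools and 19196 CPM in free RNA, and was 11-fold (10.96 to 11.1) lower in all nuclei. Taken as a percentage of Gm42418, Cmss1 was 22.01% in hepatocyte nuclei, 21.8% in other nuclei and 27.0% in free RNA, Lars2 was 8.22%, 7.87% and 7.82%, and Hbb-bs was 0.821%, 0.787% and 0.772%. Alb was 68.7%, 36.5% and 36.0% and Cps1 54.9%, 8.02% and 1.79% on the same measure. The ratio of Lars2 to Gm42418 thus differed by at most 1.05-fold between pools, that of Hbb-bs by 1.06-fold and that of Cmss1 by 1.24-fold, against 1.91-fold for Alb and 30.7-fold for Cps1. Of the other genes set against Gm42418 in the same way, Gm19951 differed by 1.18-fold, Apoe by 1.22-fold, AY036118 by 1.31-fold, Cdk8 by 1.38-fold and Neat1 by 38.5-fold. The 10 genes were chosen after their levels were seen.

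The rest of the 12 lowest were Gm19951, Mup1, Lars2, Hbb-bs, Lyz2, Apoe, Scd1, Cdk8, Apoa2 and Cyp3a11, with log2 ratios from -3.37 to -3.01. In hepatocyte nuclei the 8 lowest were Cmss1 (-4.0), Gm19951, Lyz2, Saa3, Gm42418, Slpi, Lars2 and Spp1 (-3.63). Lyz2, Slpi and Spp1 are known as genes of macrophages and of inflamed or ductal epithelium. Lyz2 was low in other nuclei too, at 31.8 CPM against 213 CPM in free RNA, a log2 ratio of -2.71. The part of cell type in these ratios was not tested.

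The 12 highest in all nuclei held genes at much lower levels in hepatocyte nuclei. Cacna1c, a calcium channel, stood at 243 CPM in all nuclei, 30.4 CPM in hepatocyte nuclei, 400 CPM in other nuclei and 47.5 CPM in free RNA, and was 5.12-fold (4.86 to 5.39) higher in all nuclei. Grm3, Slc8a3, Gm35438 (ENSMUSG00000118020, 1 of the gene IDs with this symbol), A330102I10Rik and Gm47782 likewise had positive log2 ratios in all nuclei, from 2.09 to 2.22, and negative ones in hepatocyte nuclei, from -1.12 to -0.38. Maml3, a Notch coactivator, stood at 2.07 in all nuclei and 0.02 in hepatocyte nuclei, a value that changed sign under 5 alternatives. The other 5 of the 12, BC005561, Egfros, Gm5934, Sorbs2os and Gm15738, were higher in both.

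In hepatocyte nuclei the 8 highest were Gm13449, Egfros, Gm11342, Gm12909, Gm42109, AC163685.1, Ablim3 and Kcnb2, with log2 ratios from 3.06 to 2.62. Egfros, annotated antisense to its neighbour, stood at 262 CPM in all nuclei, 455 CPM in hepatocyte nuclei, 120 CPM in other nuclei and 54.1 CPM in free RNA. That is an 8.40-fold (8.0 to 8.83) difference for hepatocyte nuclei. Gm13449, Gm11342 and Gm12909 are annotated as antisense too, and the limit on strand holds for all of them.

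The span of a gene from start to end, introns included, ordered the ratios. Among protein-coding genes the median log2 ratio in all nuclei was -1.18 for spans under 5 kb (698 genes; 1.43% higher and 56.4% lower), -0.10 for 5 to 20 kb (2657 genes), 0.59 for 20 to 100 kb (4465 genes), 1.02 for 100 to 300 kb (1261 genes) and 1.21 above 300 kb (319 genes; 72.4% higher and 0.940% lower). In hepatocyte nuclei the medians were -1.35, -0.18, 0.46, 0.85 and 1.15, and in other nuclei -1.17, -0.08, 0.61, 1.07 and 1.27. Among genes whose longest transcript is 2 to 4 kb, the medians in all nuclei ran from -0.82 to -0.01, 0.54, 1.10 and 1.36 over the same spans. Among genes with a span of 20 to 100 kb they ran only from 0.33 to 0.65 over classes of transcript length. Across genes, which are not independent and share both pools, Spearman's rho of span and ratio was 0.652 over 9400 protein-coding genes in all nuclei and 0.479 over 9035 in hepatocyte nuclei. The labels and file headers do not say whether reads in introns were counted.

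Medians of noncoding genes lay closer together over the span classes. The median over 474 lncRNA genes was 1.20 in all nuclei, with 66.5% higher, against 0.49 over 9400 protein-coding genes, and it was 1.37 against 0.30 in hepatocyte nuclei. Even lncRNA genes under 5 kb had a positive median of 0.81 (68 genes), and the next classes stood at 1.12, 1.28 and 1.43, with 1.33 in the 13 genes above 300 kb. The last class holds few genes, and its median was 0.36 over 11 genes in hepatocyte nuclei.

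**Figure D5:**
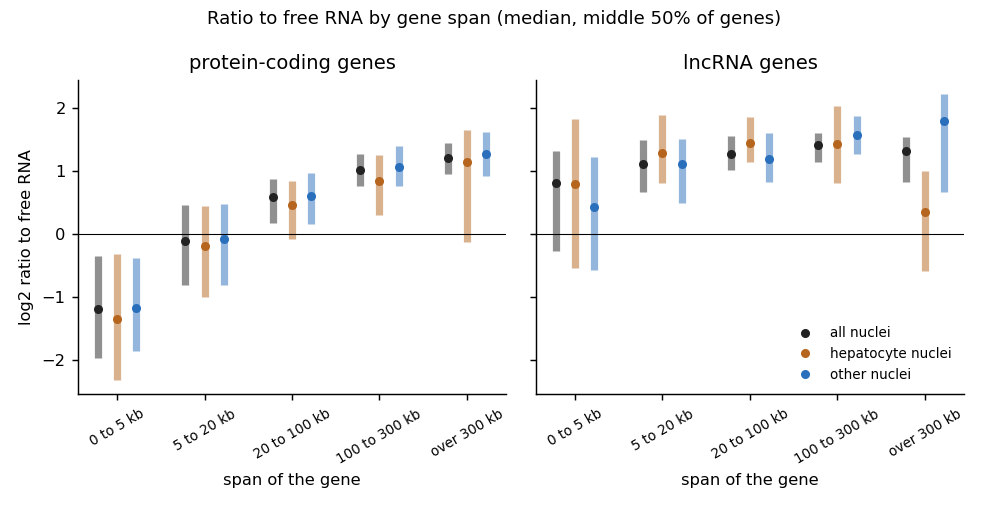
Median log2 ratio to free RNA (points) and the middle 50% of genes (bars) by gene span, for protein-coding (left) and lncRNA genes (right), in all, hepatocyte and other nuclei. Protein-coding medians in all nuclei run from -1.18 to 1.21, and lncRNA medians start at 0.81.

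In all nuclei a few genes went against their span, named here after their values were seen. Of genes above 100 kb, 7 were lower: Camk1d, Gm11867, Hmgb1, Col4a1, Gphn, Serpina1b and Cmss1. They were 3 of 1313 genes of 100 to 300 kb (0.228%) and 4 of 332 above 300 kb (1.20%). In hepatocyte nuclei lower genes were more common, at 90 of 1239 (7.26%) and 16 of 314 (5.10%) in these classes. Camk1d, a kinase gene of 421 kb, stood at 1906 CPM in all nuclei and 14144 CPM in free RNA, and Gphn, the gephyrin gene, at 2698 CPM and 6544 CPM. Of 698 protein-coding genes under 5 kb, 10 (1.43%) were higher in all nuclei: Bcs1l, Cd27, Leng9, Gm3336, Dhps, Jrkl, Lsm7, Gps2, Gadd45g and Chkb. In hepatocyte nuclei 17 of 687 (2.47%) were higher. Gadd45g, a stress-induced gene of 1.79 kb, was the most abundant of them at 56.4 CPM in all nuclei and 26.4 CPM in free RNA.

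Hepatocyte and other nuclei were set side by side to see which classes followed the nucleus they were counted in. At least 2-fold higher in hepatocyte than in other nuclei were 30 of 38 P450 genes, 19 of 32 liver enzymes, 9 of 21 liver transcription factors, 11 of 42 plasma protein genes, 2 of 9 major urinary protein genes and 0 of 80 ribosomal protein genes. Over all 9497 genes with a mean of at least 10 CPM over hepatocyte nuclei and free RNA, 868 (9.14%) were higher and 1164 (12.3%) lower, with a median log2 ratio of -0.12. The listed genes entered by the same minimum, in which other nuclei had no part, so a gene could enter through hepatocyte nuclei alone. This favours counts on the higher side. A minimum over other nuclei and free RNA passed 32 P450 genes and 33 liver enzymes. The lists of hepatocyte genes are not independent of the rule either, which chose these nuclei by hepatocyte genes. The counts are thus a description. Median ratios of hepatocyte to other nuclei were 1.42 on the log2 scale for P450 genes, 0.69 for plasma proteins and -0.75 for ribosomal proteins.

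Levels of cell type markers differed between the pools too. Summed over 8 markers, hepatocyte genes took 9145 CPM in all nuclei, 11625 CPM in hepatocyte nuclei, 7326 CPM in other nuclei and 41197 CPM in free RNA, and this list includes Alb. The 8 cholangiocyte markers took 1367 CPM, 312 CPM, 2140 CPM and 848 CPM in the same order, of which Pkhd1, a gene of bile duct epithelium, made 1102, 209, 1756 and 304 CPM. Of the 6 that passed in all nuclei, 2 were higher and 3 lower (median -0.85), against 21.0% and 10.9% of all genes. The higher sum in all nuclei thus did not hold for most of them. The 10 macrophage markers took 125, 71.6, 165 and 599 CPM. At least 2-fold lower were 9 of 10 in all nuclei, 10 of 10 in hepatocyte nuclei and 7 of 10 in other nuclei. Over all genes these shares were 10.9%, 15.9% and 11.3%. Macrophage genes differed in ratio among themselves: Lyz2, with a short gene, had a log2 ratio of -3.08 in all nuclei, and Adgre1, with a gene of 125 kb, stood at -0.22. Endothelial (326 and 419 CPM), stellate and fibroblast (223 and 531 CPM), tumour (205 and 409 CPM), neutrophil (12.1 and 56.2 CPM) and T and B cell markers (59.0 and 43.8 CPM) are given for all nuclei and free RNA. No marker of these lists was at 0 in any pool, except 1 of 7 erythroid markers, which was at 0 in nuclei. The part of cell composition in the ratios above was not tested.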

How the data were processed

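Nuclei from 2 mouse liver samples were profiled with 10x 3′ libraries. The deposited files hold a raw and a processed matrix of whole-number UMI counts per gene and barcode, which the authors made with Cell Ranger 5.0 on mm10, per the submitters' processing notes. Per the file headers the processed matrix is from cellranger 5.0.0 and the raw matrix, the source of the free RNA, from Cell Ranger 4. The gene annotation, intron setting, strand setting and the way the samples were combined are not given in the sources used here. The processed matrix holds 17169 barcodes and 95130408 UMIs, the raw matrix 6794880 barcodes and 147834570 UMIs, and 0 entries differ between them over shared barcodes. A further 198 processed barcodes of at least 5000 UMIs were over the mt- limit, and 12713 uncalled barcodes with 850 to 4057 UMIs were left out of the free RNA.

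Counts were summed per gene over each pool and scaled to CPM over all 32285 genes. The log2 ratio used a pseudocount of 1 CPM and a mean of at least 10 CPM. Ratios of counts carry exact 95% intervals (conditional binomial) that cover counting error only. Barcodes of 1 pooled matrix are not replicates, so there is no test. No doublet caller was run. Spans, transcripts and biotypes came from GENCODE M21 (GRCm38, which is mm10) for 32235 of 32285 gene IDs. The 29 gene lists, the pools and the rule for named genes were chosen with earlier results of these data known. The named genes are the 12 highest and 12 lowest ratios in all nuclei and the 8 highest and 8 lowest in hepatocyte nuclei, at a mean of at least 20 CPM, plus the 4 most abundant members and the extremes of each list; mt- genes, Cyp7b1, Abcb11 and Arg1, which the rule used, were left out of the ranking. Genes outside it are named as examples chosen after their values were seen. The counts were tried under 18 alternative settings. Scripts ran in Python 3.11.15 with numpy 2.4.6, pandas 2.3.3 and scipy 1.17.1, and were tested on simulated data. One gene of the list of retained messenger RNAs is counted in that list's totals, but its own values are not reported here.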

Additional observations from a re-analysis of the deposited data

How the results depend on the processing

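The pools, scaling, pseudocount, minimum and fold were each changed in turn. Against uncalled barcodes of 1 to 100 UMIs, 64 genes were higher in all nuclei and 676 in hepatocyte nuclei, and Gm13449 turned from a log2 ratio of 2.29 to -0.018 in all nuclei; the cause was not tested. A mean of at least 50 CPM left 1085 genes higher and 512 lower in all nuclei and 1120 and 547 in hepatocyte nuclei, since fewer genes enter, and with no minimum 2797 were lower in hepatocyte nuclei. Past 4-fold there were 25 and 301 in all nuclei and 187 and 544 in hepatocyte nuclei. The remaining settings left the 4 counts within 1.5 times. Of 918 list medians under alternatives, 758 lay within 0.25 on the log2 scale of the reported value. That limit was set while the values were in view. The other 160 moved further, 33 of them with the 1 to 100 UMI barcodes and 34 when free RNA was subtracted. The subtraction took the mt- ratio as the share of free RNA, 16.5% in all nuclei and 9.89% in hepatocyte nuclei. These values exceed the limits of 9.07% and 6.25% from Cmss1, so genes of lower ratio were set to 0. The rule had also used the mt- share. At a mean of at least 50 CPM, where fewer markers enter, the median of endothelial markers in all nuclei turned from -0.64 to 0.28. That of cholangiocyte markers turned from -0.85 to 0.43. With no minimum that of T and B cell markers turned from 0.63, which rested on only 2 of 8 markers, to -0.16. Of 1144 single-gene ratios, 558 were counted as the same, 585 as moved, and 1 as reversed after passing 2-fold.

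No paired analysis was possible because the pooled barcodes carry no sample, and for the same reason leaving out a sample was not run. A count of A runs within gene spans was planned and not run, since no genome sequence was used here. Depth limits genes of few UMIs in free RNA, where counting intervals are widest. Differences between the samples, and between animals, are not measured by any value here.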
